A study of Mus musculus with 4 samples.

Results

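A set of 10 genes of the p53 pathway and of the brake on the cell cycle were followed in mouse induced regulatory T (iTreg) cells cultured with or without iron. They were the tumor suppressor gene Trp53 itself, 7 genes known as targets of p53 (Mdm2, Cdkn1a, Ccng1, Phlda3, Sesn1, Zmat3 and Trp53inp1), and the inhibitors of cyclin-dependent kinases (CDKs) Cdkn1b and Cdkn2c, while Cdkn1a belongs to both classes. The genes were chosen by symbol, and all 10 were found among the 47729 gene rows of the count table and passed the filter on low counts that left 13732 genes to test.

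The cells were CD4 T cells of C57BL/6 mice. For their source, the culture methods name naïve cells from spleen and lymph nodes, and a supplementary legend on iTreg cultures names the spleen alone. The cells were activated with antibodies against CD3 and CD28 in TGF-β and IL-2, with IL-4 and IFN-γ blocked by antibodies. This medium turns on Foxp3, the transcription factor that defines regulatory T cells. The cultures received ferrous sulfate (FeSO4, 50 µM) or PBS (Mock) for 4 days, with 2 libraries per group. Both groups are described as wild type and are labelled to differ in the iron salt alone. According to the methods the 2 pairs came from independent experiments, but the labels do not tie a replicate number to an experiment.

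The protein p53 is a transcription factor that is kept scarce by the ubiquitin ligase Mdm2 and is stabilized when DNA is damaged or growth is disturbed. It binds DNA as a tetramer through pairs of a short half-site, and its targets stop the cell cycle, limit growth signaling, repair DNA or trigger cell death. CDK inhibitors hold the kinases that drive the cycle, and in T cells p27 (Cdkn1b) and p18 (Cdkn2c) are known as brakes on division.

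The promoters of the target genes are shown because p53 acts through a short DNA element that can lie near the start of its targets. RefSeq windows on GRCm38.p6, each from 250 bases before to 50 bases after a start site, were given for 8 of the 10 genes, in 11 windows because Cdkn1a, Cdkn2c and Sesn1 have more than 1 start. The genes without an entry were Zmat3 and Trp53inp1. The 4 windows below were chosen for Cdkn1a, which has 2 matches, for Mdm2 and Ccng1, which have 1 each, and for Phlda3, the target whose RNA differed most between the groups. They lie at chr17:29090729-29091028 (Cdkn1a, first start, plus strand), chr10:117710709-117711008 (Mdm2, minus strand), chr11:40755237-40755536 (Ccng1, minus strand) and chr1:135765835-135766134 (Phlda3, plus strand). Each is written 5′ to 3′ on the strand of the gene, and capitals mark matches to the p53 half-site consensus.
Cdkn1a: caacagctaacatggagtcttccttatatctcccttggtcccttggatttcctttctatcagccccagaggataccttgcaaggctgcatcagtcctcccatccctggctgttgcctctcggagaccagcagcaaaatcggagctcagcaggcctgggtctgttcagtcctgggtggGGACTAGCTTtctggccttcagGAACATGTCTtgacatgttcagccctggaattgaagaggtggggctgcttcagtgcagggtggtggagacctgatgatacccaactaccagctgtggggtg
Mdm2: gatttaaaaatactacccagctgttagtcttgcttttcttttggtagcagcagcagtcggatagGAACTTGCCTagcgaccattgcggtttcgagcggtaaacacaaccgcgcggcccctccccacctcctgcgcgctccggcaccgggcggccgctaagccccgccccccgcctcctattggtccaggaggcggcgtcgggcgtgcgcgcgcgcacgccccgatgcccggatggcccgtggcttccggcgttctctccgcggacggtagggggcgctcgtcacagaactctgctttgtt
Ccng1: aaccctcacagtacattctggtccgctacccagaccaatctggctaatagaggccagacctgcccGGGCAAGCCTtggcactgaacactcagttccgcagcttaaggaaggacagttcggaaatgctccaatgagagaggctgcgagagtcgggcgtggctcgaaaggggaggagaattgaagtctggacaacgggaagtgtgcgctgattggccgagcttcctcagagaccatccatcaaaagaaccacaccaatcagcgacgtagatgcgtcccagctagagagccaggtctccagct
Phlda3: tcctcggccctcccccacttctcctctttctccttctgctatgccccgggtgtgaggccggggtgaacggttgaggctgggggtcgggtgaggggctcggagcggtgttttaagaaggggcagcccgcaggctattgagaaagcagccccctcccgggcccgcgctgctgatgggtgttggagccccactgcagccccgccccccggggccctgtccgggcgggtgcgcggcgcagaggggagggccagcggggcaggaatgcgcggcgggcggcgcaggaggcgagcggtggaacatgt

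A match to the p53 half-site consensus, searched on both strands, was present in 5 of the 11 windows and in 5 of the 8 genes, beside 8.36% of all 32851 promoter windows. The Cdkn1a window held GGACTAGCTT at -73 to -64 and GAACATGTCT at -51 to -42 relative to the start site. In Mdm2 the match was GAACTTGCCT at -186 to -177, and in Ccng1 it was GGGCAAGCCT at -185 to -176. Trp53 had GGACTTGCCC at -75 to -66 and the second start of Sesn1 had AAGCTTGTTT at -173 to -164. No full match was found in the windows of Phlda3, Cdkn1b and Cdkn2c. The Phlda3 window ends in gaacatgt, which fits the first bases of the half-site consensus. The window edge cuts this stretch off, so the search could not score it. The GC box GGGCGG was found on either strand in 7 of the 11 windows, beside 35.7% of all windows. These matches describe letters in a short window and are not shown to be bound in these cells.

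The gene rows held between 35183187 and 40859178 reads per library, and the 10 genes had between 726 and 11533 reads each per library. Levels are given in CPM, the read counts of a gene relative to the size of its library after TMM scaling. The T cell label was checked with Cd3d, Cd3e, Cd4, Foxp3 and Il2ra, the lowest value of which was 287 CPM (Cd3d in Mock replicate 2). Foxp3 fell by 0.59 ± 0.09 on the log2 scale and Cd3d, a part of the T cell receptor complex, rose by 0.38 ± 0.06 (SE), while Cd3e, Cd4 and Il2ra were not called. Of 7 myeloid markers, 1, Cst3, was called higher in FeSO4, and the list summed to 89.6 to 99.8 CPM in Mock and 117 to 120 CPM in FeSO4. Cst3 made up most of that sum (87.1 to 93.5 CPM in Mock and 115 to 118 CPM in FeSO4), while Lyz2 had 164 and 8 reads in Mock and 0 in both FeSO4 libraries, and Csf1r had no more than 7 reads in any library. Of 3 red cell markers, 1, Hba-a1, was called higher, and the list summed to 20.9 to 25.9 CPM in Mock and 34.5 to 39.8 CPM in FeSO4. B cell markers reached 7.22 CPM in Mock replicate 1 and 2.59 to 2.69 CPM in the other libraries, and of 4 NK cell markers Ncr1, Klrb1c and Klra8 had 0 reads in every library, while Eomes, which some T cells also express, had 19 to 44. The CD8 T cell markers Cd8a and Cd8b1 summed to 9.04 to 11.0 CPM and were not called. The part of these markers in the results below was not tested. In bulk RNA, fewer cells that express a gene and less of its RNA per cell cannot be told apart.

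With iron supplementation 2 of the 10 genes, Phlda3 and Zmat3, fell at an adjusted p under 0.05 (edgeR's quasi-likelihood test, Benjamini-Hochberg adjustment over all tested genes), none rose, and 8 did not pass, with 95% intervals of the log2 fold change that lay between -0.36 and 0.27. Among all tested genes 9.17% were called lower, 10.9% higher and 20.0% in either direction, beside 2 of the 10 genes (20.0%) that were called, both of them lower. Without adjustment, 4 of the 10 genes had a p under 0.05, as did 32.3% of all tested genes. The median log2 fold change of the 10 genes was -0.10, that of all tested genes was 0.00, and the median size of a change without regard to sign was 0.13 among the 10 and 0.20 among all tested genes.

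**Figure D1:**
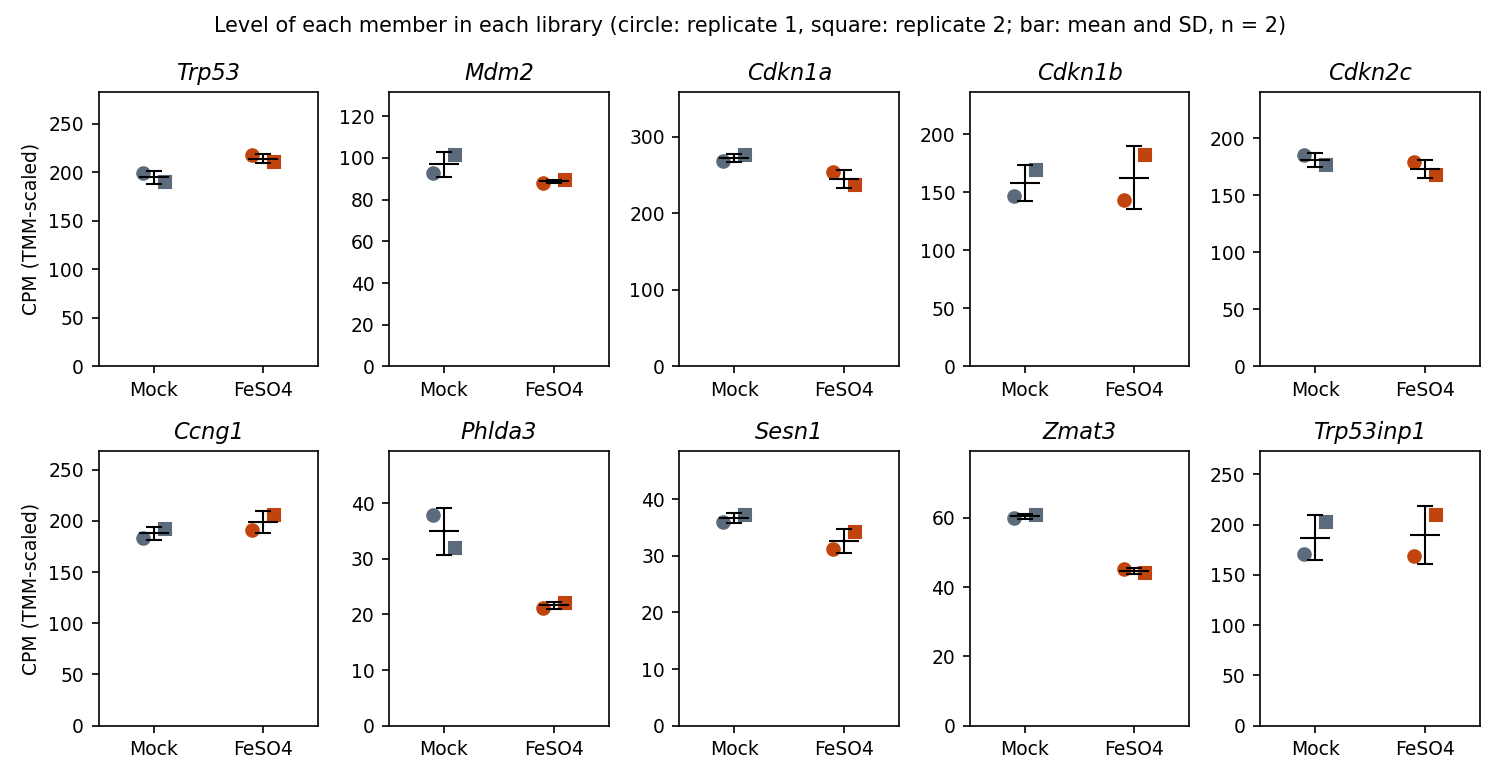
Level of each of the 10 genes in each library (vertical axes: CPM on TMM-scaled library sizes, from 0, with a separate scale for each gene). Circles are replicate 1, squares are replicate 2, and the bars give the mean and SD of the 2 libraries of a group; Phlda3 and Zmat3 show FeSO4 libraries well under both Mock libraries, while Cdkn1b and Trp53inp1 differ more between the replicate numbers than between the groups.

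Phlda3 encodes a small pleckstrin homology domain protein that competes with the kinase Akt for membrane lipids and so restrains Akt signaling. It lies at chr1:135766085-135769134 (GRCm38.p6). Its level was 37.9 and 32.0 CPM in Mock replicates 1 and 2 and 21.2 and 22.0 CPM in FeSO4 replicates 1 and 2, from 1539, 1337, 726 and 815 reads. Both FeSO4 libraries lay under both Mock libraries, and the Mock libraries differed from each other by more than the FeSO4 libraries did. Phlda3 fell by 38.1%, a log2 fold change of -0.69 ± 0.11 (SE; 95% interval -0.92 to -0.46; adjusted p = 0.000266, edgeR's quasi-likelihood test). The log2 ratio of FeSO4 to Mock was -0.84 between the libraries numbered 1 and -0.54 between those numbered 2. The size of this change was greater than that of 87.8% of all tested genes. Phlda3 was also the single gene of the 10 that passed the threshold of the study (p under 0.05 before adjustment and a change of 0.5 or more on the log2 scale), by which 5.73% of all tested genes were lower.

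Zmat3 encodes a zinc finger protein that binds RNA and acts in splicing and in the decay of messenger RNAs. It lies at chr3:32334792-32365665. Its level was 59.9 and 60.9 CPM in Mock replicates 1 and 2 and 45.2 and 44.1 CPM in FeSO4 replicates 1 and 2, from 2430, 2548, 1547 and 1631 reads. The libraries of each group lay close together, and the groups did not overlap. Zmat3 fell by 26.2%, a log2 fold change of -0.44 ± 0.08 (SE; 95% interval -0.61 to -0.27; adjusted p = 0.00101, edgeR's quasi-likelihood test). The ratios of the same-numbered libraries were -0.41 and -0.47 on the log2 scale. Phlda3 and Zmat3 kept their direction and their call under all 13 alternative analyses, those that leave out each library included, with a log2 fold change between -0.81 and -0.57 for Phlda3 and between -0.50 and -0.42 for Zmat3.

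**Figure D2:**
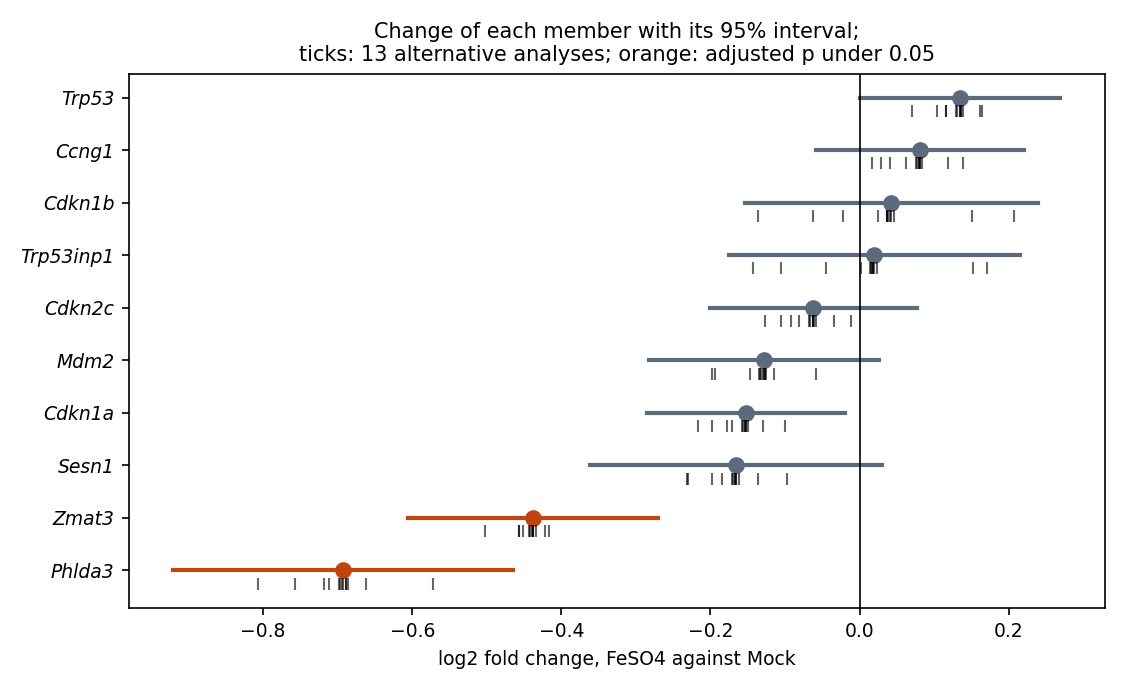
Log2 fold change of each of the 10 genes, FeSO4 against Mock (horizontal axis), with its 95% interval from edgeR's quasi-likelihood fit; the ticks under each bar are the values of 13 alternative analyses. Phlda3 and Zmat3, in orange, have an adjusted p under 0.05, and the intervals of the other 8 genes stay between -0.36 and 0.27.

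Trp53 (chr11:69580348-69591873) encodes p53. Its RNA was at 200 and 190 CPM in the Mock libraries, against 217 and 211 CPM with FeSO4 (replicates 1 and 2 in this order, here and below). Both FeSO4 libraries were above both Mock libraries, a pattern that 30.1% of all tested genes showed, and Trp53 was the only one of the 10 genes with it. The log2 fold change was 0.14 ± 0.06 (SE; 95% interval 0.0012 to 0.27), and the adjusted p of 0.151 (edgeR) missed the threshold. The count table has a separate row for the pseudogene Trp53-ps, which had 0 reads in every library.

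Mdm2 (chr10:117688875-117710758), the ligase that p53 induces and that in turn marks p53 for degradation, was at 92.6 and 101 CPM in the Mock libraries, against 88.2 and 89.3 CPM with FeSO4. The FeSO4 libraries lay just under the lower Mock library, and the log2 fold change was -0.13 ± 0.07 (SE; 95% interval -0.28 to 0.03; adjusted p = 0.240, edgeR). The interval does not reach the estimate for Zmat3 (-0.44) but overlaps the Zmat3 interval (-0.61 to -0.27). A difference between these genes was not tested. The estimate was -0.20 without Mock replicate 1 and -0.06 without Mock replicate 2.

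Cdkn1a (chr17:29090979-29100722) encodes p21, the CDK inhibitor through which p53 arrests the cell cycle. It had 269 and 276 CPM in the Mock libraries, against 253 and 237 CPM with FeSO4, and the groups did not overlap. The log2 fold change was -0.15 ± 0.06 (SE; 95% interval -0.29 to -0.02), with an unadjusted p of 0.0276 and an adjusted p of 0.103 (edgeR). With libraries scaled by their size only, which moved the median of all genes to -0.07, it was -0.22 with an adjusted p of 0.0201 (edgeR), the single one of 13 alternatives under which it passed (adjusted p 0.0201 to 0.510 over them).

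The remaining targets did not pass the test. Sesn1 (chr10:41810574-41908436), a stress-induced sestrin that restrains mTORC1, was at 36.0 and 37.3 CPM in the Mock libraries, against 31.1 and 34.1 CPM with FeSO4, without overlap (log2 fold change -0.17 ± 0.09, SE; 95% interval -0.36 to 0.03; adjusted p = 0.235, edgeR). Ccng1 (chr11:40748552-40755309), the gene of the atypical cyclin G1, had 184 and 192 CPM in the Mock libraries, against 191 and 206 CPM with FeSO4, with overlapping groups (0.08 ± 0.07, SE; interval -0.06 to 0.22). Trp53inp1 (chr4:11156441-11174379), whose product assists p53 and autophagy, had 171 and 203 CPM in the Mock libraries, against 169 and 210 CPM with FeSO4. Here both groups were higher in replicate 2, by 0.25 and 0.31 on the log2 scale, and the log2 fold change between the groups was 0.02 ± 0.09 (SE; interval -0.18 to 0.22). Its sign changed with the library left out and with the scaling.

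Of the 7 targets, 5 had a negative log2 fold change, and these were the same 5 genes whose FeSO4 libraries both lay under both Mock libraries: Mdm2, Cdkn1a, Phlda3, Sesn1 and Zmat3. Over all tested genes that pattern was found in 29.4%. The groups of the other 4 genes, Ccng1, Trp53inp1, Cdkn1b and Cdkn2c, overlapped. With 2 libraries against 2, an exact permutation test of a single gene cannot give a two-sided p under 0.333, so the calls rest on the spread that edgeR shares among genes.

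Cdkn1b and Cdkn2c, the CDK inhibitors that are not classical p53 targets, did not pass the test. Cdkn1b (chr6:134920401-134925525) encodes p27, which binds cyclin E and CDK2 complexes and accumulates in resting T cells. Its level was 147 and 169 CPM in the Mock libraries, against 143 and 182 CPM with FeSO4, so that both replicates 2 were above both replicates 1. The log2 fold change was 0.04 ± 0.09 (SE; 95% interval -0.15 to 0.24; adjusted p = 0.795, edgeR), and its sign also changed with the library left out and with the scaling. Cdkn2c (chr4:109660876-109666756) encodes p18, an inhibitor of CDK4 and CDK6. It had 185 and 176 CPM in the Mock libraries, against 179 and 167 CPM with FeSO4, with overlapping groups (-0.06 ± 0.07, SE; interval -0.20 to 0.08; adjusted p = 0.562, edgeR).

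Levels of different genes were compared per kilobase of exon, with exon lengths from GENCODE M1. Cdkn1a was the most abundant of the 10 per length in both groups, at 123 ± 2.18 CPM per kilobase in Mock and 110 ± 5.29 in FeSO4 (SD, n = 2 each). This Mock level was 3.53 times that of Cdkn1b and 16.4 times that of Zmat3, the least abundant of the 10. Cdkn2c followed with 67.2 ± 2.25 CPM per kilobase in Mock, then Ccng1 with 53.5 ± 1.76 and Trp53 with 48.2 ± 1.70. The order of Ccng1 and Trp53 turned when the longest transcript was used as the length. Cdkn1b (34.7 ± 3.43) and Trp53inp1 (28.9 ± 3.49) came next, with library ranges that did not meet in Mock but did in FeSO4. Per kilobase of exon they were the single pair of neighbors in either order whose libraries overlapped. Within each library, however, Cdkn1b was above Trp53inp1 by this measure, at 31.5 against 26.1 in FeSO4 replicate 1 and 39.9 against 32.4 in FeSO4 replicate 2. With the longest transcript as the length, their Mock means lay closer together, at 34.7 and 34.4 CPM per kilobase. Phlda3 stood at 22.4 ± 2.7 CPM per kilobase in Mock, above Mdm2 at 19.1 ± 1.20, and at 13.9 ± 0.375 in FeSO4, below Mdm2 at 17.5 ± 0.155. With the longest transcript Mdm2 was above Phlda3 in Mock as well, at 31.0 against 24.4 CPM per kilobase. Sesn1 had 11.0 ± 0.276 and Zmat3 7.47 ± 0.0908 CPM per kilobase in Mock.

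**Figure D3:**
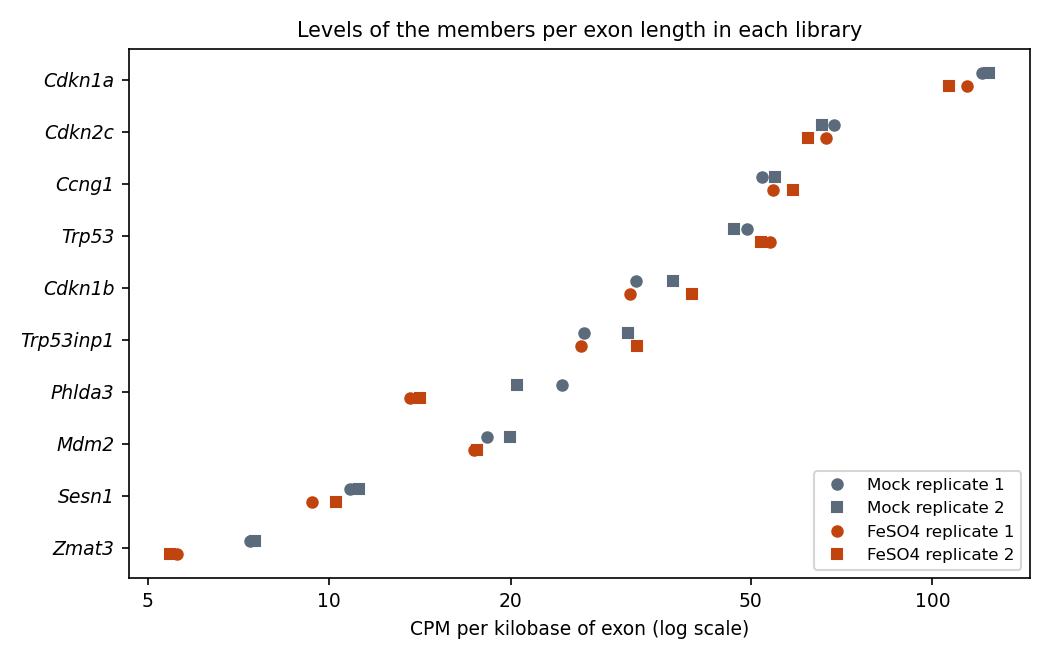
Level of each gene per exon length in each library (horizontal axis: CPM per kilobase of exon, log scale), in order of the Mock mean. Cdkn1a lies highest, at 123 CPM per kilobase on average in Mock, and Phlda3 moves from above Mdm2 in Mock to below it in FeSO4.

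Other genes of the pathway were read from lists of related genes. Of 35 further p53 targets tested, 4 were called higher (11.4%, beside 10.9% of all tested genes), 6 lower (17.1%, beside 9.17%) and 25 neither, with a median log2 fold change of -0.04. Btg2, an antiproliferative gene, fell from 77.0 ± 2.97 CPM in Mock to 53.7 ± 5.91 CPM with FeSO4 (SD, n = 2 per group; a log2 fold change of -0.52 ± 0.09, SE; edgeR adjusted p = 0.000419). Xpc, a sensor of DNA damage in nucleotide excision repair, fell by 0.44 ± 0.09 on the log2 scale. Rps27l, a ribosomal protein paralog, rose by 0.36 ± 0.07, and Trp53i11 rose by 0.27 ± 0.07, although the latter was not called without the filter and without Mock replicate 1 or FeSO4 replicate 2 (adjusted p up to 0.185 over the alternatives, edgeR). The 4 targets Bbc3, Bax, Pmaip1 and Fas, which trigger cell death, were picked after their values were seen. Bbc3 (Puma) fell by 0.33 ± 0.10 on the log2 scale, a call lost in 5 of 13 alternatives, among them those without Mock replicate 1, FeSO4 replicate 1 or FeSO4 replicate 2 (adjusted p up to 0.152, edgeR or DESeq2), while Bax (0.06 ± 0.07), Pmaip1 (Noxa; -0.05 ± 0.10) and Fas (-0.15 ± 0.12) did not pass the test. The counts of this list depended on the setting, with 1 to 6 genes higher and 2 to 7 lower over the 13 alternatives, with 1 higher and 2 lower without the filter on low counts, 2 higher without Mock replicate 2, 2 higher and 3 lower without FeSO4 replicate 1, and 2 lower without FeSO4 replicate 2.

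Of 23 tested regulators and relatives of p53, 4 were called higher (17.4%, beside 10.9% of all tested genes) and 8 lower (34.8%, beside 9.17%), with a median log2 fold change of -0.11. Npm1, a nucleolar protein that can bind Mdm2, rose from 651 ± 19.9 CPM in Mock to 889 ± 23.2 CPM with FeSO4 (SD, n = 2 per group; a log2 fold change of 0.45 ± 0.06, SE; edgeR adjusted p = 5.38e-05). Rpl11, the ribosomal protein that inhibits Mdm2 when ribosome assembly is disturbed, rose by 0.40 ± 0.06. Hipk2, a kinase that phosphorylates p53, fell by 0.80 ± 0.12, and Ppp1r13b, which encodes the p53 cofactor ASPP1, fell by 0.45 ± 0.08. Mdm4, the partner of Mdm2, was picked after its values were seen and fell by 0.24 ± 0.06 on the log2 scale (Mock libraries 273 and 283 CPM, FeSO4 libraries 228 and 243 CPM). Mdm4 lost its call without the filter and without Mock replicate 2 or FeSO4 replicate 1 (adjusted p up to 0.179, edgeR). Npm1, Rpl11 and Rps27l may have near-identical copies elsewhere in the genome, and reads that align to several places stayed out of the counts. The values of these genes are therefore uncertain, and the effect of such copies was not tested. The list had 3 to 9 genes lower and 2 to 4 higher over the 13 alternatives, with 4 lower without Mock replicate 2 and 2 higher without FeSO4 replicate 1.

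Among the other CDK inhibitors, Cdkn3, a phosphatase that acts on CDKs and is highest in dividing cells, rose from 25.5 ± 0.253 CPM in Mock to 35.7 ± 3.84 CPM with FeSO4 (SD, n = 2 per group; a log2 fold change of 0.48 ± 0.10, SE; edgeR adjusted p = 0.00295). Cdkn1c, which encodes p57, was scarce, with 67 and 55 reads in Mock and 12 and 25 reads in FeSO4. It fell by 1.51 ± 0.47 (log2, SE; adjusted p = 0.0312, edgeR), a call that was lost in 5 of 13 alternatives, among them those without Mock replicate 1, FeSO4 replicate 1 or FeSO4 replicate 2 (adjusted p up to 0.282, edgeR). Cdkn3 lost its call without the filter and without FeSO4 replicate 1 (adjusted p up to 0.0564, edgeR). Cdkn2b (0.58 ± 0.36, interval -0.18 to 1.34) and Cdkn2a (0.13 ± 0.26, interval -0.42 to 0.68) did not pass, and Cdkn2d was not analysed here.

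Of 20 cyclins, CDKs and members of the RB and E2F families, 3 were called higher (15.0%, beside 10.9% of all tested genes) and 1 lower (5.0%, beside 9.17%). The median log2 fold change was 0.11, with a positive sign in 17 of the 20, beside 6852 of all 13732 tested genes. Ccnb1, the mitotic cyclin B1, rose by 0.39 ± 0.06 on the log2 scale, its kinase Cdk1 by 0.33 ± 0.07 and the S phase cyclin gene Ccne1 by 0.33 ± 0.07. Rbl2, which encodes the pocket protein p130 of resting cells, fell by 0.26 ± 0.07 and was not called without the filter, without Mock replicate 2 or without either FeSO4 replicate (adjusted p up to 0.113, edgeR). Ccne1 was not called without the filter and without FeSO4 replicate 1 (adjusted p up to 0.0533, edgeR). Over the 13 alternatives the list had 2 to 5 genes higher and 0 to 2 lower, with 5 higher and 2 lower under the replicate block, 2 lower without Mock replicate 1 and 0 lower without any one of the other 3 libraries.

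Of 14 genes that act on the turnover or transcription of p27, 3 were called higher (21.4%, beside 10.9% of all tested genes) and 5 lower (35.7%, beside 9.17%), with a median log2 fold change of -0.04, while Cdkn1b itself was not called. Foxo3 and Foxo1, transcription factors that can activate Cdkn1b, fell by 0.53 ± 0.08 and 0.32 ± 0.07 on the log2 scale. Klf2, a quiescence factor of T cells, fell from 264 ± 9.03 CPM in Mock to 185 ± 28.9 CPM with FeSO4 (SD, n = 2 per group; a log2 fold change of -0.51 ± 0.08, SE). Rnf123, a ubiquitin ligase for p27, fell by 0.30 ± 0.07 and lost its call without the filter and without FeSO4 replicate 1 (adjusted p up to 0.101, edgeR). Foxo1 and Klf2 were not called without the filter either. The 3 higher genes, picked with their values in view, were Cks1b (0.27 ± 0.08), Skp1a (0.21 ± 0.06) and Cops5 (0.21 ± 0.07). They act in the degradation or export of p27. Their calls were kept in 9 (Cks1b), 8 (Skp1a) and 6 (Cops5) of the 13 alternatives. Cops5 was not called whichever library was left out, with a log2 fold change of 0.15 to 0.25 over all alternatives. Over the 13 alternatives 0 to 3 of the 14 genes were called higher and 1 to 5 lower. None was higher with library size only, without the filter (where 1 was lower), without Mock replicate 2 or without FeSO4 replicate 1 (where 3 were lower), and 1 was higher without FeSO4 replicate 2.

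**Figure D4:**
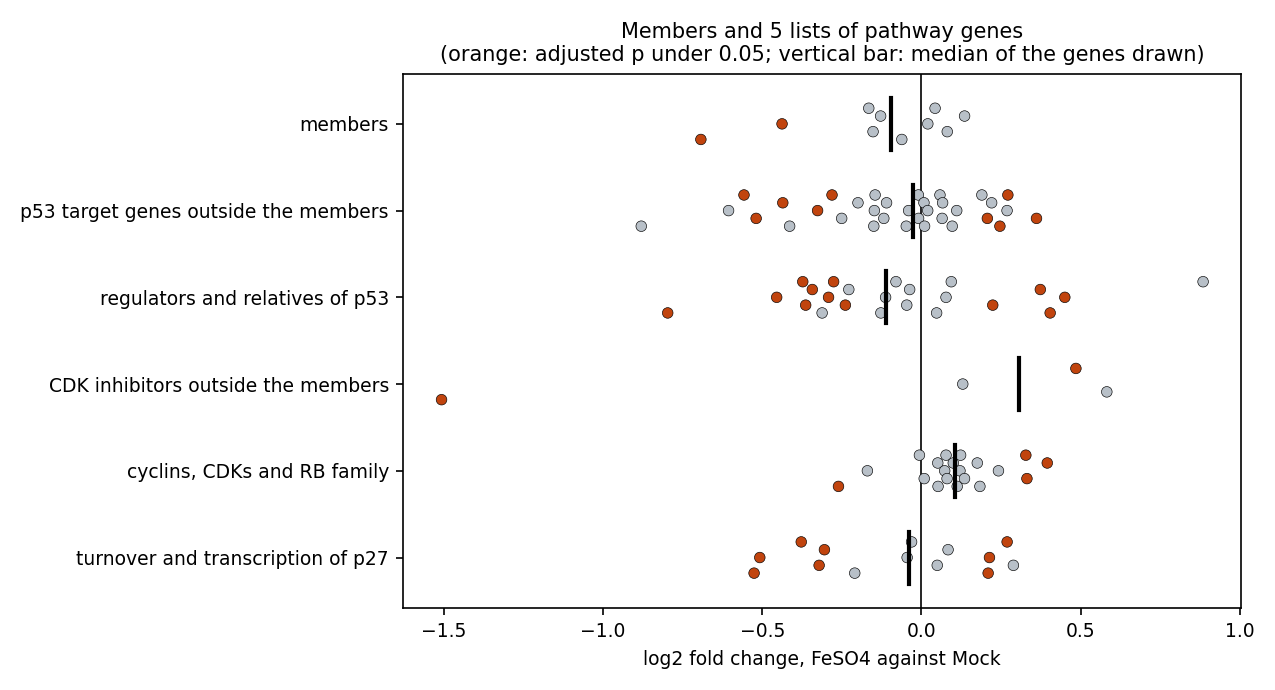
Log2 fold change, FeSO4 against Mock (horizontal axis), of the 10 genes (row "members") and of the tested genes of 5 related lists, with the median of the genes drawn as a vertical bar and genes of adjusted p under 0.05 in orange. Ptpn14, with 1 and 2 reads in FeSO4, is left out of the drawing; the medians of the lists lie near 0, except that of the 4 other CDK inhibitors.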

How the data were processed

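RNA of 4 libraries (2 Mock, 2 FeSO4) was sequenced, and the authors deposited a table of raw counts of reads for each Ensembl gene and library, without normalization. The sources differ on how these were made. The methods name the build mm9 and STAR, the submitters' processing notes name mm10, Trim Galore 0.6.7, STAR 2.7.9a and featureCounts, and the rows of unassigned reads carry the names that HTSeq writes, so the counter is uncertain and the strand setting is not given in the sources used here. Neither library sizes nor tests used these 5 rows (no feature, 4.36 to 6.03%; ambiguous, 3.78 to 3.91%; low quality, 0.802 to 0.988%; not aligned, 1.80 to 2.31%; more than 1 alignment, 4.27 to 4.62%). Positions and promoter windows are RefSeq on GRCm38.p6, and exon lengths are GENCODE M1 (mm9) for orientation.

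The counts were tested with edgeR 4.0.16 in R 4.3.3 (filterByExpr, TMM, quasi-likelihood F test with legacy = FALSE, Benjamini-Hochberg adjustment). The older form of that fit, which this edgeR version uses by default, was run as an alternative added after seeing the data, since legacy = FALSE was kept because it gave the counts of an earlier processing of these data. The SE is the size of the log2 fold change divided by the square root of F. Other alternatives were DESeq2 1.42.0, limma-voom (limma 3.58.1), further scalings and filters, a block for the replicate number, and each library left out. On simulated data for this comparison (13732 genes), 15 of 50 genes changed by 0.25 on the log2 scale were called and 28 of 50 changed by 0.5. All calls had the right direction, and 11 genes without a change were called as well. Only 50 genes were changed at each size, while 20.0% of all tested genes were called in the data. The adjustment thus acted under unlike conditions, and these rates may not carry over to the data. P-values measure the spread between these libraries only. Replicates differed beyond sampling noise (chi-square per degree of freedom 11.3 in Mock and 9.02 in FeSO4). A count of 3 corresponds to 0.0717 to 0.0876 CPM, which covers counting error only.

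The 10 genes and all lists were chosen with earlier results of these data known. Symbols were matched by Ensembl ID. The text names all 10 genes, up to 4 tested genes of smallest p per list, all CDK inhibitors and the T cell markers; other genes are marked as picked after their values were seen or are markers of other cell types.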

Additional observations from a re-analysis of the deposited data

How the results depend on the processing

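Phlda3 and Zmat3 were called lower in all 13 alternatives, with adjusted p up to 0.0341 and 0.0323 (edgeR, DESeq2 or limma-voom). At the threshold of the study 1 of the 10 genes was lower. With library size only, the median of the 10 genes was -0.16, Cdkn1a passed (-0.22), and Cdkn1b (-0.0218) and Trp53inp1 (-0.0448) reversed. With 1 library left out, the log2 fold change ran from -0.14 to 0.21 for Cdkn1b and from -0.14 to 0.17 for Trp53inp1; Cdkn1b was -0.06 without Mock replicate 1 and -0.14 without FeSO4 replicate 2, and Trp53inp1 was -0.11 and -0.14. With 1 library left out the values, none of them called, ran from -0.20 to -0.06 for Mdm2, -0.20 to -0.10 for Cdkn1a, -0.23 to -0.10 for Sesn1, -0.11 to -0.01 for Cdkn2c, 0.03 to 0.14 for Ccng1 and 0.10 to 0.16 for Trp53. The cause was not tested. A group left with 1 library is assumed to vary like the other. Over all tested genes, 1491 were higher and 1259 lower. Higher calls numbered 980 with library size only, 524 without the filter, 641 at the threshold of the study, 789 at an adjusted p under 0.01, and 893 to 1199 with 1 library left out (893 without FeSO4 replicate 1). Lower calls numbered 304 without the filter, 787 at the threshold of the study, 597 at an adjusted p under 0.01, and 710 to 1158 with 1 library left out (710 without FeSO4 replicate 1). The share of higher calls thus fell with library size only, under which 1810 genes were lower. The older quasi-likelihood fit, added after seeing the data, gave 1455 and 1221.

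The replicate numbers were not treated as pairs in the main fit, since the study names no covariate and the labels do not tie them to experiments. Deviations of same-numbered libraries correlated at 0.0293 over 13732 genes, a value that cannot exclude pairing for single genes. Under a block for the replicate number, the SE went from 0.09 to 0.06 for Cdkn1b and also for Trp53inp1. With the replicate block, 2 of the 10 genes were again lower and 0 higher, the median of the 10 was -0.09, and 1847 genes were higher and 1580 lower. With the longest transcript as the length, Mock levels per kilobase ran from 7.75 for Zmat3 to 143 for Cdkn1a, with Ccng1 and Cdkn1b unchanged and the other 8 higher. Each of the 10 genes had at least 726 reads in every library.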
